A study of Mus musculus with 12 samples.

Results

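The response of GPR15 knockout (KO) macrophages to lipopolysaccharide (LPS) was read from 6 of the 12 arrays of the series: the 3 arrays whose titles name KO cells with LPS and the 3 that name KO cells with PBS. The cells came from the abdominal cavity of C57/BL6 mice, were kept in DMEM with serum, and were treated for 4 h with PBS or with 100 ng/ml of LPS. The other 6 arrays hold wild-type (WT) cells of the same strain under the same treatments, 3 with PBS and 3 with LPS, and serve below only for comparison. Each array is a one-colour Agilent array of total RNA. How GPR15 was deleted, the age of the mice, how macrophages were separated from other peritoneal cells and if each replicate is a mouse of its own are not given in the sources used here. The p-values therefore measure the spread between these samples, which may be technical.

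LPS is a component of the outer membrane of Gram-negative bacteria. Macrophages sense it through CD14 and the TLR4-MD2 receptor, whose adaptors MyD88 and TRIF drive separate arms: NF-kB and AP-1 activate inflammatory genes, and IRF3 activates interferon genes whose products then raise the interferon-stimulated genes. NF-kB also turns on its own inhibitors. GPR15 is a G protein-coupled receptor best known for guiding T cells to the large intestine.

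A level below is the log2 signal of a gene's probe relative to the 75th percentile of the non-control spots of the same array, so that 0 stands for that percentile. A change is the difference of 2 such levels, LPS minus PBS, given with the standard error of the limma fit over 12 arrays and with n = 3 arrays per group throughout. A gene was called when its Benjamini-Hochberg adjusted p over the 13205 genes tested lay below 0.05, and "rose" and "fell" are used only of called genes. Since levels of different probes cannot be compared, each gene is followed across arrays.

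The 6 KO arrays were of similar quality: the 75th percentile of the signal ranged from 485.6 to 574.1, the share of the 59305 spots detected well above background from 51.4% to 57.1%, and 0 spots were saturated. The probe for Gpr15 was well above background on 0 of 12 arrays, so this gene gives no check of the KO label. Ddx3y, Eif2s3y, Kdm5d and Uty, all Y-linked, were well above background on 6 of 6 KO arrays, and Xist on 0 of 6, whereas Xist was above background on 6 of 6 WT arrays. A comparison of KO with WT cells is thus also one of Y-positive with Xist-positive cells. The macrophage markers, among them Adgre1, Cd68 and Csf1r, were well above background on all 6 KO arrays in 10 of 10 cases. B-cell markers were detected on all 6 KO arrays in 12 of 12 cases, mast-cell markers in 8 of 8 and T-cell markers in 10 of 12.

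The arrays lay on 2 slides, and the slides did not split evenly between the treatments. Slide 1 held KO PBS replicates 1 and 2 with all WT arrays, and slide 2 held KO PBS replicate 3 with all KO LPS arrays. KO PBS replicate 3 stood apart from its group: the median difference over genes was 0.07 between PBS replicates 1 and 2, but 0.15 and 0.17 between replicate 3 and these, against 0.06 to 0.07 among the LPS arrays. Between a PBS and an LPS array it was 0.32 to 0.43. Slide and treatment are therefore partly confounded in KO cells. A fit with the slide as a term compares the LPS arrays with KO PBS replicate 3 alone, and its values are given below as the within-slide change. Its PBS side is 1 array, which is assumed to vary like the arrays of the other groups, so the slide and this array cannot be told apart.

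**Figure D1:**
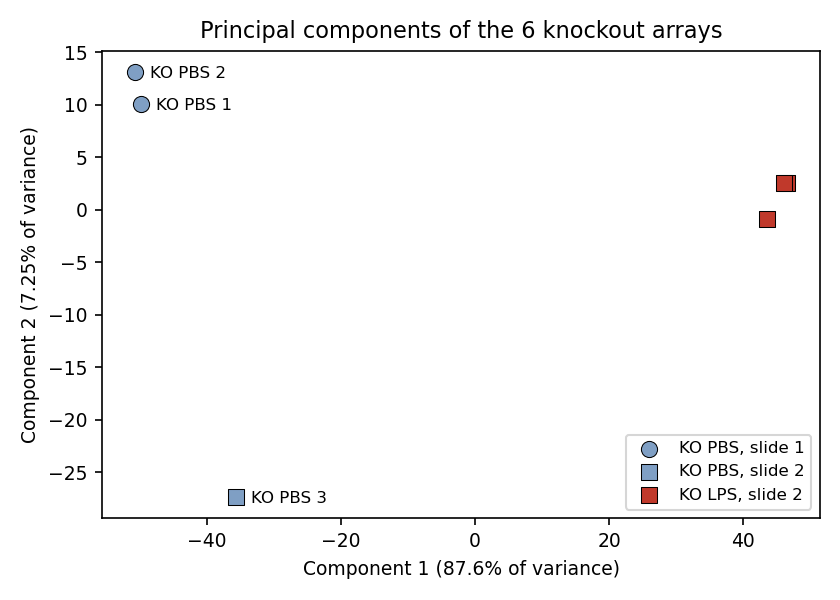
Principal components of the 6 KO arrays over the genes tested, component 1 (87.6% of the variance) across and component 2 (7.25%) upward, with circles for slide 1 and squares for slide 2. Component 1 separates the 3 LPS arrays (43.6 to 46.5) from the 3 PBS arrays (-50.7 to -35.6), and KO PBS replicate 3 lies apart from the other PBS arrays on component 2 at -27.3.

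LPS changed most genes of KO macrophages. Of 13205 genes tested, 8876 (67.2%) were called, 4649 (35.2%) higher and 4227 (32.0%) lower, and the median change over all genes was 0.04. At least 2-fold changes were fewer, with 936 rises and 951 falls, and at least 4-fold changes numbered 217 rises and 171 falls. At 8-fold there were 61 rises and 26 falls. These counts include genes measured in the LPS or the PBS group alone, whose direction follows from the filter and whose change is not exact. Among genes well above background on all 6 KO arrays, 677 rose and 745 fell at least 2-fold. For 4966 genes (37.6%) all 3 LPS arrays lay above all 3 PBS arrays, and for 4570 (34.6%) all lay below. Within slide 2, 3675 genes (27.8%) were called higher and 3343 (25.3%) lower; 3321 and 3192 genes were called in the same direction in both fits, 2363 lost their call and 0 reversed. The counts of each gene list below are to be read against these shares of all genes. In WT cells the same genes gave 4458 rises (33.8%) and 4081 falls (30.9%).

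Among genes well above background on all 6 KO arrays, the 6 largest rises were those of Csf3, Has1, Cd70, Cxcl5, Csf2 and Slamf1, which encode colony-stimulating factors, a hyaluronan synthase, a chemokine and co-stimulatory molecules. Csf3, the granulocyte colony-stimulating factor, lay at -2.14, -1.65 and -2.00 on the PBS arrays and at 3.95, 3.90 and 3.99 on the LPS arrays. It thus rose by 5.87 ± 0.42, or 58.6-fold (adjusted p = 1.9e-07 in limma). Csf2, which supports the growth and activity of macrophages and granulocytes, went from -0.64, -0.43 and -0.87 to 4.04, 4.22 and 3.65, a rise of 4.62 ± 0.19. Has1 makes hyaluronan, a matrix polysaccharide, and lay at -2.38, -2.40 and -2.38 with PBS and at 2.84, 2.91 and 2.59 with LPS, a 35.9-fold rise. That the groups did not overlap was a condition for naming these genes and is no separate support.

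Cd70, the TNF-family ligand of the lymphocyte receptor CD27, rose from -3.26, -3.52 and -3.47 to 1.74, 1.87 and 1.55, a change of 5.14 ± 0.27. Slamf1, a self-ligand on immune cells that also binds bacteria, rose by 4.58 ± 0.21, with PBS arrays at -2.52, -2.79 and -2.17 and LPS arrays at 2.09, 2.11 and 2.07. Cxcl5, a chemokine that attracts neutrophils, rose by 4.73 ± 0.36 and lay at 2.37 to 2.71 with LPS against -2.62 to -1.96 with PBS. Other large rises were spread over signalling, transport and metabolism. Rhou, a small GTPase, rose by 4.31 ± 0.15 and Cdk5r1, the activating partner of the kinase CDK5, by 4.02 ± 0.07. Mfsd2a carries lysophosphatidylcholine into cells and rose by 3.88 ± 0.19, and Gfpt2, which starts hexosamine synthesis, rose by 3.80 ± 0.23. The oncostatin M receptor gene Osmr rose by 3.74 ± 0.34 and the interleukin-2 receptor subunit gene Il2ra by 3.15 ± 0.07. Dusp14, a phosphatase that acts on MAP kinases, rose by 3.49 ± 0.22.

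**Figure D2:**
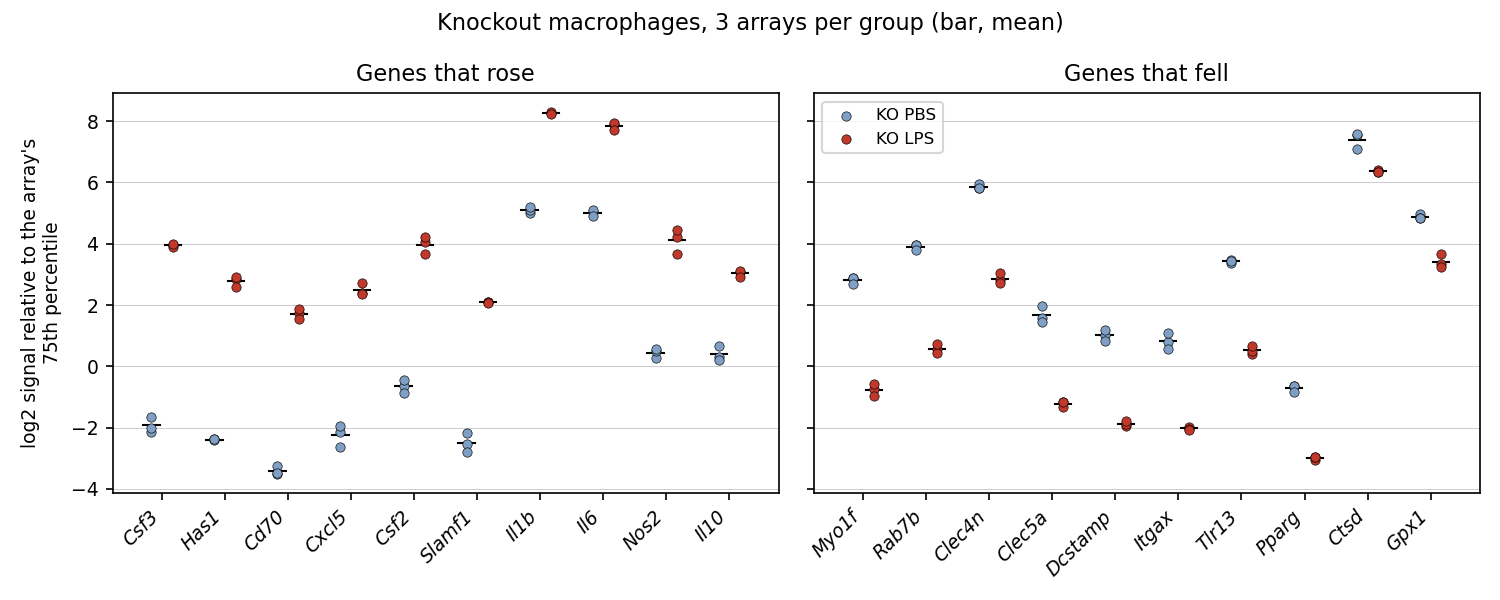
Levels of 10 genes that rose (left) and 10 that fell (right) on each of the 3 KO PBS and 3 KO LPS arrays, as log2 signal relative to the array's 75th percentile, with bars at the group means. The groups do not overlap for any gene shown, which was a condition for naming the largest rises and falls. Csf3 lies at or below -1.65 with PBS and at or above 3.90 with LPS, and Clec4n at or above 5.82 with PBS and at or below 3.03 with LPS.

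Some genes were measured in KO cells in the LPS or the PBS group alone, so that only a lower bound of the change can be given, taken against the faintest spot still detected well above background on the arrays where the gene was not. Such genes passed the filter only through the group where they were high. Their direction follows from the filter, and in the list counts below it is no separate support. Il19, which belongs to the interleukin-10 family, was well above background on 0 of 3 PBS arrays and lay at 0.98, 0.95 and 0.88 with LPS, at least 34.7-fold higher. Slco2b1, an organic anion transporter, was at least 31.9-fold higher, Cyp1b1, a cytochrome P450 that oxidises steroids, at least 17-fold and Mgll, which releases fatty acids from monoacylglycerols, at least 10.8-fold. The tissue plasminogen activator gene Plat was at least 8.12-fold higher and the neurotrophic factor gene Gdnf at least 6.99-fold. In the other direction, Ackr2, a decoy receptor that removes inflammatory chemokines, lay at -1.17, -1.38 and -1.16 with PBS and was at least 9.21-fold lower with LPS. The transcriptional repressor gene Bhlhe41 was at least 6.37-fold lower and Spns2, an exporter of sphingosine-1-phosphate, at least 4.35-fold lower.

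Of 24 genes of the TLR4 receptor complex, its adaptors and kinases, 11 rose (45.8%) and 6 fell (25.0%), near the 35.2% and 32.0% of all genes, with a median change of 0.15, which was 0.27 within slide 2 and 0.04 without KO PBS replicate 3. The co-receptor gene Cd14 lay at 8.14, 8.05 and 7.98 with PBS and at 8.57, 8.57 and 8.47 with LPS, a rise of 0.48 ± 0.09. Ly96, which encodes the LPS-binding subunit MD2, went from 4.05, 4.19 and 3.99 to 3.01, 3.03 and 2.89, a 2.14-fold fall, although its probes were called in opposite directions. The kinase gene Map3k8, which links TLR4 to ERK, rose by 1.26 ± 0.10. Traf3, a ubiquitin ligase of the TRIF arm, rose by 0.80 ± 0.07, while the kinase gene Irak4 fell by 0.52 ± 0.08.

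NF-kB subunits and their inhibitors rose together. All 11 genes tested rose, with a median of 1.25, and all 11 were also called within slide 2. Nfkbiz, a nuclear IkB protein needed for secondary response genes such as Il6, lay at 1.60, 1.62 and 1.53 with PBS and at 4.32, 4.36 and 4.32 with LPS, a rise of 2.75 ± 0.14. Nfkbia, the classical inhibitor that retains NF-kB in the cytosol, rose by 1.71 ± 0.12 and Nfkb2 by 1.37 ± 0.06. Of 30 feedback inhibitors of inflammatory signalling, 22 rose and 4 fell, with a median of 0.87; within slide 2 the counts were 22 and 2. The deubiquitinase gene Tnfaip3 went from 4.56, 4.58 and 4.67 to 6.96, 7.09 and 6.96 and rose by 2.40 ± 0.06. Zc3h12a, which degrades cytokine mRNAs, rose by 2.88 ± 0.17, with a PBS level of -0.38 and -0.31 on replicates 1 and 2 and of 0.40 on replicate 3. Il10, the main anti-inflammatory cytokine of macrophages, rose from 0.31, 0.65 and 0.21 to 3.07, 3.11 and 2.92. Sigirr, a receptor that dampens TLR and IL-1 signals, fell by 1.43 ± 0.23.

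Cytokines of the IL-6, IL-12 and IL-10 families rose in 12 of 13 genes and fell in 0, with a median change of 2.13, or 2.06 with 2 members held at their lower bound. Those 2, Il19 and Il23a, and also Il22 passed the filter through the LPS arrays alone, so their rises are no separate support. Il6 lay at 5.02, 5.10 and 4.91 with PBS and at 7.90, 7.93 and 7.72 with LPS, a 7.14-fold rise (2.84 ± 0.25, adjusted p = 1.2e-06 in limma). Lif, a relative of IL-6, rose by 3.59 ± 0.62, and Il23a, the specific subunit of IL-23, was at least 2.96-fold higher. Il22 was well above background on 1 of 3 PBS arrays, with levels of -5.42, -5.19 and -2.46, and its rise of 2.69 ± 0.83 was not called within slide 2 (0.79). It also lost its call without KO PBS replicate 1 or 2. The member not called was Il12a, at -0.18 ± 0.17. Within slide 2, 9 of the 13 were called.

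Il1a and Il1b rose. Pycard, Gsdmd and Casp1 were among the 5 genes of the interleukin-1 and inflammasome list that fell, against 15 that rose. Il1b, already high with PBS at 5.01, 5.09 and 5.20, reached 8.26, 8.31 and 8.22, an 8.94-fold rise. Il1a went from 1.53, 1.56 and 1.80 to 5.26, 5.46 and 5.26, a rise of 3.70 ± 0.11. In contrast Pycard, the adaptor that assembles inflammasomes, fell from 3.32, 3.25 and 3.11 to 1.43, 1.30 and 1.64. Gsdmd, the pore protein of pyroptosis, fell by 0.64 ± 0.10, and Casp1, the protease that matures IL-1, by 0.34 ± 0.07. Of the 21 genes of the family and the inflammasome, 15 rose and 5 fell, with a median of 0.65, or 0.59 with 2 members held at their lower bound. Within slide 2 the counts were 9 and 3 and the median 0.44. Among 13 TNF superfamily ligands 8 rose (61.5%) and 3 fell (23.1%), against 35.2% and 32.0% of all genes. Tnfsf9, the ligand of the co-stimulatory receptor 4-1BB, rose by 2.49 ± 0.10 and Lta, the gene of lymphotoxin alpha, by 2.93 ± 0.12. Tnfsf12, which encodes TWEAK, fell by 1.46 ± 0.13.

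Of the genes that rose at least 4-fold, 3 are shown with the 250 bases before their start, since they hold the letters GGANTTTCC of an NF-kB type site on either strand. These letters stood in 1.28% of the 10540 RefSeq windows of the genes tested, which run from 250 bases before to 50 bases after the start. They stood in 2.17% of the windows of genes at least 2-fold higher, in 4.29% of those at least 4-fold higher (7 of 163) and in 0.393% of those at least 2-fold lower (3 of 763). Of the 20 largest rises with both groups measured, 15 had a window, and 0 of these held the letters, so the genes shown were chosen after their values were seen, as the largest rises among named genes that held them. The windows are from RefSeq on build GRCm38.p6, written on the gene's strand with the match in capitals: Il6 at chr5:30012864-30013113 (plus strand), Cxcl10 at chr5:92348890-92349139 (minus) and Tnfaip3 at chr10:19015411-19015660 (minus). The match begins 43, 158 and 24 bases before the start, and that of Cxcl10 reads on the opposite strand.
Il6: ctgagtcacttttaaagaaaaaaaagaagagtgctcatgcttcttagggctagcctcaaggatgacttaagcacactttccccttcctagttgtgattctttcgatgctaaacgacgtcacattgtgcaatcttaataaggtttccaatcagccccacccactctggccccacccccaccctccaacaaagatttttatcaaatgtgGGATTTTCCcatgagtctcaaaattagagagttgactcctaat
Cxcl10: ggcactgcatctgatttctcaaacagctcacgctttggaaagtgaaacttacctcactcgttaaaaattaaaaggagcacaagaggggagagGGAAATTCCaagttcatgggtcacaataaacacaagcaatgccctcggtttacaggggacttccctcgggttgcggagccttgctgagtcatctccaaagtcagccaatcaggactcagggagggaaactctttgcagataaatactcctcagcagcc
Tnfaip3: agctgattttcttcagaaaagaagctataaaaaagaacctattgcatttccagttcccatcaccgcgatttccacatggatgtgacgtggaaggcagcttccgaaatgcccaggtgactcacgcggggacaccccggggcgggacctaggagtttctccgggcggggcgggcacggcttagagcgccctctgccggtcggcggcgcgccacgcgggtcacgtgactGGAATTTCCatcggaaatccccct
The letters TGANTCA of an AP-1 type site stood, on either strand, in 5.62% of all windows, 14.1% of those of genes at least 4-fold higher and 7.08% of those of genes at least 2-fold lower. A match describes the letters in a window and not a bound site.

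Of 27 chemokine genes tested, 13 rose (48.1%) and 6 fell (22.2%), against 35.2% and 32.0% of all genes. The median was 0.50, and 0.87 within slide 2. Cxcl3, a neutrophil chemokine, lay at 4.56, 4.43 and 4.83 with PBS and at 6.93, 6.94 and 7.01 with LPS, a rise of 2.36 ± 0.10. Ccl4, which attracts monocytes and lymphocytes, rose by 2.32 ± 0.15, and Ccl7, a monocyte chemokine, by 2.87 ± 0.57. Ccl17, a ligand of CCR4 on T cells, fell from 0.98, 1.12 and 0.59 to -1.87, -1.61 and -2.21, a 6.94-fold fall. The eosinophil chemokine gene Ccl24 fell by 1.93 ± 0.14 and Cxcl14 by 1.76 ± 0.18. Of 24 receptor genes for chemokines and other attractants 8 rose (33.3%) and 11 fell (45.8%), or 5 (20.8%) and 7 (29.2%) within slide 2, where all genes gave 27.8% and 25.3%; these shares lie near those of all genes. Ccr7, which guides cells to lymph nodes, rose by 1.69 ± 0.07 and Cxcr5 by 1.72 ± 0.07. The chemokine receptor gene Ccr9 fell by 2.48 ± 0.10, the complement receptor gene C3ar1 by 2.03 ± 0.11 and Cxcr4 by 1.54 ± 0.18.

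Colony-stimulating and growth factors rose in 13 of 25 genes (52.0%) and fell in 9 (36.0%), against 35.2% and 32.0% of all genes. The median of 0.58 was 0.09 within slide 2, and -0.19 among the genes well above background on all 6 KO arrays. Falls included Igf1, insulin-like growth factor 1, which went from 4.29, 4.35 and 4.20 to 2.71, 2.77 and 2.81. Tgfb2 fell by 1.30 ± 0.08, Flt3l, a growth factor of dendritic cells, by 1.40 ± 0.07 and Kitl, the ligand of the mast-cell receptor KIT, by 1.34 ± 0.17. Vegfa, at -0.31 ± 0.18, was not called.

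Nos2, the inducible nitric oxide synthase, lay at 0.26, 0.50 and 0.56 with PBS and at 4.22, 4.45 and 3.67 with LPS, a 12.8-fold rise (adjusted p = 4.3e-06 in limma). Arg2, an arginase, rose by 1.40 ± 0.06 and Odc1, which starts polyamine synthesis, by 1.75 ± 0.15. Ass1 and Asl, which resupply arginine from citrulline, fell by 0.82 ± 0.17 and 0.59 ± 0.08; the call of Ass1 was lost within slide 2. In all, 10 of 15 genes of arginine, nitric oxide and itaconate metabolism rose and 3 fell, with a median of 0.97, or 0.72 with 2 members at their bound. In prostaglandin and leukotriene synthesis 7 of 20 genes rose and 10 fell. Ptgs2, the inducible cyclooxygenase, went from 4.30, 4.35 and 4.38 to 7.31, 7.39 and 7.18, a 7.71-fold rise. Ptges, the synthase of prostaglandin E2, rose by 0.79 ± 0.07 and its receptor gene Ptger4 by 0.94 ± 0.08. The synthases of thromboxane and prostacyclin, Tbxas1 and Ptgis, fell by 1.32 ± 0.17 and 1.11 ± 0.11.

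Among 31 genes of matrix, proteolysis and coagulation 14 rose (45.2%) and 10 fell (32.3%), against 35.2% and 32.0% of all genes. The protease inhibitor gene Timp1 rose by 2.93 ± 0.22. The urokinase gene Plau fell by 1.81 ± 0.12. Spp1, the gene of osteopontin, fell from 2.42, 2.65 and 2.37 to -0.37, -0.20 and -0.08. Fibronectin (Fn1) was not called, at 0.07 ± 0.05.

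Of 26 AP-1, Egr, Nr4a and other immediate early factors, 12 rose (46.2%) and 5 fell (19.2%) at 4 h. Of all genes 35.2% rose and 32.0% fell. Myc went from 1.75, 1.69 and 1.92 to 4.23, 4.33 and 4.32, a 5.68-fold rise. Batf, an AP-1 family factor, rose by 2.27 ± 0.06 and Fosl1 by 1.44 ± 0.16. Egr2 fell from 4.52, 4.85 and 4.13 to 2.40, 2.43 and 2.31, and Klf2, a factor that keeps macrophages quiescent, fell by 1.25 ± 0.11. Atf3 was not called, at 0.08 ± 0.13. Survival genes rose in 20 of 30 cases and fell in 6 (3 within slide 2), with a median of 0.52. Traf1, an adaptor of TNF receptors, rose by 2.20 ± 0.07, Bcl2 by 1.50 ± 0.12 and Bcl2l1, which encodes BCL-XL, by 1.40 ± 0.18. The pro-apoptotic gene Bad fell by 0.63 ± 0.09.

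The largest falls include 5 receptors of the C-type lectin, scavenger and Fc receptor list and an endosomal sensor. Clec4n, the gene of Dectin-2, which binds fungal sugars, lay at 5.83, 5.95 and 5.82 with PBS and at 2.83, 2.73 and 3.03 with LPS, a 7.99-fold fall (adjusted p = 1.5e-07 in limma). Clec5a, a DAP12-coupled receptor, fell from 1.59, 1.98 and 1.45 to -1.17, -1.33 and -1.15. Itgax, which encodes the integrin CD11c, fell by 2.84 ± 0.14, from 0.79, 1.08 and 0.58 to -1.97, -2.03 and -2.06. Tlr13, an endosomal sensor of bacterial ribosomal RNA, fell by 2.90 ± 0.10, from 3.36, 3.48 and 3.45 to 0.41, 0.51 and 0.66. That no array of either group overlapped the other in these genes was a condition for naming them among the largest falls. Myo1f, a myosin of leukocytes, fell by 3.58 ± 0.11, Rab7b, a GTPase of late endosomes, by 3.33 ± 0.08 and Dcstamp, needed for macrophage fusion, by 2.88 ± 0.13. Slc43a2, an amino acid transporter, fell by 2.96 ± 0.08 and Acss1, which activates acetate in mitochondria, by 2.99 ± 0.10. Cacna1i had the largest fall of a gene detected on every KO array, 3.63 ± 0.11, but its probes were called in opposite directions.

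Of 37 C-type lectin, scavenger and Fc receptors, 18 fell and 5 rose, with a median of -0.28, or -0.42 within slide 2. The fall did not extend to every lectin. Clec4e, the receptor Mincle, lay at 7.77, 7.77 and 7.61 with PBS and at 7.68, 7.68 and 7.60 with LPS and was not called (-0.07 ± 0.08), and Clec4d was not called either (-0.10 ± 0.05). Trem1, which amplifies inflammation, rose by 1.53 ± 0.17 and the scavenger receptor gene Msr1 by 0.51 ± 0.11. Antigen presentation and co-stimulation genes rose in 7 of 23 cases (30.4%) and fell in 12 (52.2%), against 35.2% and 32.0% of all genes. Their median was -0.47, and -0.27 within slide 2. Cd40 rose from 0.85, 1.06 and 0.42 to 2.56, 2.64 and 2.47, and Cd274, the ligand PD-L1, rose by 1.58 ± 0.14. H2-DMa, which loads peptides on class II molecules, fell by 1.19 ± 0.13, and H2-Oa, which inhibits that loading and is active in B cells, by 1.83 ± 0.21.

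Genes that mark large resident peritoneal macrophages fell in 14 of 24 cases and rose in 6, with a median of -0.42; within slide 2 the counts were 12 and 3. Naip1, a sensor of bacterial needle protein, went from -0.38, -0.39 and -0.64 to -2.65, -2.64 and -2.54. The integrin gene Itga6 fell by 1.33 ± 0.08. Cebpb, a bZIP transcription factor, rose by 0.48 ± 0.10, and Prg4, the lubricin gene, by 0.26 ± 0.06, a call that was lost after quantile normalization. Of the 10 general macrophage markers 7 fell and 1 rose, and their summed linear level, in multiples of the array's 75th percentile, was 655.3 to 731.5 with PBS and 641.2 to 660.6 with LPS. Cd14, which rose, makes up much of this sum, and the other 9 summed to 402.7 to 457.3 with PBS and 270.5 to 286.7 with LPS. The summed level of 12 B-cell markers was 127.5 to 133.7 with PBS and 72.8 to 73.9 with LPS, and 8 of them fell and 2 rose; without Cd79b, which moved the sum most, it was 75.7 to 80.1 and 63.8 to 64.2. That of 12 T-cell markers was 20.7 to 22.1 and 13.2 to 14.8, with Cd8a and Trat1 not above background on any KO array. Cd2 carried this drop: without it the sum was 10.8 to 11.6 with PBS and 10.7 to 11.8 with LPS, and of the 10 T-cell markers tested 2 rose and 3 fell. For 8 mast-cell markers the sum was 99.1 to 116.3 and 187.9 to 204.8. Hdc, the histidine decarboxylase, carried most of this rise, at 40.1 to 48.7 with PBS and 112.8 to 129.0 with LPS, and the other 7 summed to 58.99 to 67.62 and 75.03 to 76.96. Of the 8, 3 rose and 1 fell, and 1 and 0 within slide 2. For 8 dendritic-cell markers, with Xcr1 not above background, the sum was 153.5 to 171.1 and 188.0 to 191.8, of which Siglech alone made 149.6 to 167.5 and 183.7 to 187.7. Of the 6 dendritic-cell markers tested 4 rose and 1, Itgax, fell, and within slide 2 the counts were 2 and 1. Neutrophil markers summed to 6.32 to 9.40 with PBS and 8.09 to 10.2 with LPS, with Cxcr2, Ngp and Ltf not above background; S100a8 alone made 2.04 to 2.99 and 4.10 to 5.22. Fewer cells of a type and less RNA per cell cannot be told apart in such bulk samples, and the part of these cells in the falls and rises was not tested.

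Lysosomal genes fell almost throughout. Of 41 genes of the lysosome and the proton pump 36 fell and 2 rose, with a median of -0.50; 33 fell within slide 2 and 36 without KO PBS replicate 3. The cathepsin gene Ctsd went from 7.53, 7.57 and 7.10 to 6.42, 6.33 and 6.34, a fall of 1.04 ± 0.10. Lipa, which releases cholesterol from lipoprotein esters, fell from 3.42, 3.54 and 3.27 to 1.47, 1.39 and 1.52. Atp6v0d2, a proton pump subunit of osteoclasts and macrophages, was at least 3.65-fold lower. The 2 rises were Gla, by 0.23 ± 0.06, and Tfeb, the master regulator of lysosome genes, by 0.42 ± 0.11, neither of them called within slide 2. For Tfeb the mean of all its probes fell by 0.48.

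Sterol synthesis genes fell in 14 of 23 cases and rose in 2, with a median of -0.45. Ebp fell by 0.77 ± 0.07 and Pmvk by 0.66 ± 0.07, whereas Idi1, an enzyme of the mevalonate pathway, rose by 0.57 ± 0.07. LXR targets and fatty acid synthesis genes rose in 6 of 21 cases (28.6%) and fell in 9 (42.9%), against 35.2% and 32.0% of all genes. Pparg, a nuclear receptor of lipid uptake and resolution, went from -0.65, -0.64 and -0.85 to -3.06, -2.97 and -2.95, a 4.86-fold fall. Nr1h3, which encodes LXR alpha, fell by 1.47 ± 0.10, the cholesterol exporter gene Abcg1 by 1.19 ± 0.07 and the lipid receptor gene Cd36 by 1.09 ± 0.07. The related exporter gene Abca1 rose by 0.77 ± 0.15 and the fatty acid synthase gene Fasn by 1.01 ± 0.07. Apoe was not called, at -0.07 ± 0.08.

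NRF2 targets and antioxidant genes had the lowest median of the pathway lists, -0.65, with 19 of 29 falling and 3 rising. Gpx1, a glutathione peroxidase, went from 4.96, 4.84 and 4.85 to 3.33, 3.26 and 3.66, and Nqo1, a quinone reductase, fell by 2.05 ± 0.25. Catalase (Cat) fell by 1.23 ± 0.08, Gclm, a subunit of the glutathione-making ligase, by 1.17 ± 0.12 and Prdx6 by 1.17 ± 0.05. The rises were Sod2, the mitochondrial superoxide dismutase and a known NF-kB target, by 1.06 ± 0.06, the cystine importer gene Slc7a11 by 0.53 ± 0.09 and Txn1 by 0.28 ± 0.07; the call of Txn1 was lost within slide 2 and after quantile normalization.

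Of 26 glycolysis and lactate genes 7 rose (26.9%) and 11 fell (42.3%), near the shares of all genes (35.2% and 32.0%). Pfkfb3, which makes an activator of phosphofructokinase, went from 3.75, 3.54 and 3.66 to 6.10, 6.03 and 6.13. Hk2, a hexokinase, rose by 1.58 ± 0.12, the glucose transporter gene Slc2a1 by 0.82 ± 0.09, the lactate transporter gene Slc16a1 by 1.63 ± 0.20 and Hif1a by 0.73 ± 0.15. Pfkl, the liver-type phosphofructokinase, fell by 1.01 ± 0.08 and Aldoa by 0.76 ± 0.10. In the citric acid cycle 3 of 25 genes rose and 10 fell. The isocitrate dehydrogenases diverged: Idh1 fell by 1.82 ± 0.13 and Idh2 by 0.82 ± 0.09, while Idh3a rose by 0.82 ± 0.06.

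In the unfolded protein and integrated stress response 14 of 29 genes rose (48.3%) and 9 fell (31.0%), against 35.2% and 32.0% of all genes. The median of 0.17 was 0.32 within slide 2 and 0.08 without KO PBS replicate 3. Ddit4, an inhibitor of mTORC1, rose by 1.74 ± 0.06 and Ppp1r15a, which restores translation after stress, by 1.53 ± 0.06. The sensor kinase gene Eif2ak3 fell by 1.21 ± 0.06. Cell cycle and DNA replication genes rose in 11 of 39 cases (28.2%) and fell in 22 (56.4%), against the same shares of all genes. Within slide 2, 14 fell. Ccnd2, a D-type cyclin, rose from 4.68, 4.58 and 4.58 to 7.60, 7.54 and 7.57, whereas Ccnd1 fell by 1.73 ± 0.43 and Ccna2 by 1.60 ± 0.18.

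Ifna4 was well above background on 0 of 3 PBS arrays and at least 6.21-fold higher with LPS, and Ifna1 rose by 2.15 ± 0.17; the probes of these near-identical genes may not tell them apart. Ifnb1, the main interferon of the TRIF arm, was well above background on 0 of 3 PBS arrays and on 3 of 3 LPS arrays, at least 1.62-fold higher with LPS by that bound, and was not called (adjusted p = 0.17 in limma); it is named here because of its role, after its values were seen. Irf1 and Irf3 were not called, at 0.08 ± 0.19 and 0.03 ± 0.06, although Irf3 was called higher within slide 2 (0.18), while Irf4 rose by 1.61 ± 0.14 and the receptor kinase gene Jak2 by 1.65 ± 0.07. Of 20 genes of interferon induction, receptors and IRFs 9 rose and 4 fell, and within slide 2 the counts were 9 and 2.

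Most interferon-stimulated genes rose in KO cells, 8 of them at least 2-fold. Of 56 tested, 44 rose (78.6%, against 35.2% of all genes) and 2 fell (3.57%, against 32.0%), and the median change was 0.51, against 0.04 over all genes. Within slide 2, 36 rose and 0 fell, the median was 0.42, and without KO PBS replicate 3 the counts were 43 and 2. For 46 of the 56 all 3 LPS arrays lay above all 3 PBS arrays, as for 37.6% of all genes. Oasl1, which blocks translation of Irf7, had the largest rise: 4.97, 4.72 and 5.24 with PBS and 6.96, 7.03 and 7.06 with LPS, a change of 2.04 ± 0.11. Ifi205, a DNA-binding protein of the p200 family, rose from 3.79, 3.72 and 3.87 to 5.61, 5.62 and 5.56. Isg15, a ubiquitin-like modifier, rose by 1.63 ± 0.11 and Ifih1, the RNA sensor MDA5, by 1.47 ± 0.08. At the other end Ifit3 lay at 2.41, 2.00 and 2.61 with PBS and at 2.29, 2.31 and 2.31 with LPS and was not called (-0.03 ± 0.15); its near-identical copy Ifit3b gave the same value. The immunoproteasome genes Psmb8 and Psmb9 were the 2 that fell, by 0.36 ± 0.09 and 0.25 ± 0.10, and neither was called within slide 2. The call of Psmb9 was also lost without KO PBS replicate 1 or 2 or KO LPS replicate 1 or 3.

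The promoters of 3 of these genes are shown because members of the list often hold the letters GAAANNGAA of an interferon response type site on either strand. These stood in 55.6% of their windows (25 of 45), against 7.69% of all windows, 9.49% of those of genes at least 2-fold higher, 12.3% of those at least 4-fold higher and 8.52% of those at least 2-fold lower. The AP-1 letters stood in 22.2% of the windows of the list (10 of 45), against 5.62% of all. The 3 genes are those with the largest rise that hold the letters in the 250 bases before the start. The stretches lie at chr1:174031756-174032005 for Ifi205, chr4:156200819-156201068 for Isg15 and chr2:62646256-62646505 for Ifih1, all on the minus strand of GRCm38.p6, written on the gene's strand with the matches in capitals.
Ifi205: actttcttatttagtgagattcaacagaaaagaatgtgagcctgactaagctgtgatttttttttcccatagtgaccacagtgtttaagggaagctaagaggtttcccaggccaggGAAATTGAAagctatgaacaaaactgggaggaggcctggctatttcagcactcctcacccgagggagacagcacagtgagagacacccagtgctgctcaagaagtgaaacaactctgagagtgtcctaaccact
Isg15: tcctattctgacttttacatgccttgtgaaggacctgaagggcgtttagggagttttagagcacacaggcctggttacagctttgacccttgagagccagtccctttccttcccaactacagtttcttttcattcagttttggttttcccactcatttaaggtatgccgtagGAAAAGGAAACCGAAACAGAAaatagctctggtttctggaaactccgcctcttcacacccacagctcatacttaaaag
Ifih1: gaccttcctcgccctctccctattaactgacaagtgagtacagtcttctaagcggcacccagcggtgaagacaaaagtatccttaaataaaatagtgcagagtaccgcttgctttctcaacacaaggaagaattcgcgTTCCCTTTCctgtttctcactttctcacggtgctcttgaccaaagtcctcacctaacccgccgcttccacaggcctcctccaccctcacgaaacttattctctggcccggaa
Isg15 holds 3 overlapping matches, which begin 78, 72 and 66 bases before the start. The match of Ifi205 begins 134 bases before the start, and that of Ifih1, on the opposite strand, 112 bases before it.

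Whether the KO response differed from the WT response was asked with the difference of the 2 changes, KO minus WT. Only genes well above background on all 3 arrays of a KO group were tested, so genes detected in WT cells alone could not enter. The difference was called for 567 of 13205 genes, 122 more positive in KO cells (0.924%) and 445 more negative (3.37%). With the slide as a term 39 and 291 of these kept their call. The count depended on single arrays: it was 2793 without KO PBS replicate 3, 956 without WT PBS replicate 3, 356 without WT PBS replicate 1, 358 without KO PBS replicate 1 and 360 without KO LPS replicate 1. KO LPS arrays share no slide with WT arrays. The genotypes shared 3550 genes called higher and 3492 called lower, while 65 fell in KO and rose in WT cells and 15 did the reverse.

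The difference was called negative for 55 of 56 interferon-stimulated genes and for 54 of them also with the slide as a term; the count was 55 without KO PBS replicate 3. The member not called, named for that reason, was Ms4a4c, at -0.08 ± 0.19. All 56 rose in WT cells, 52 of them at least 2-fold, at a median of 1.89. The levels show that both ends of the comparison differed. The median level of the list was 2.62 to 2.66 on the WT PBS arrays and 3.21 to 3.34 on the KO PBS arrays, and after LPS 4.36 to 4.65 on the WT arrays and 3.60 to 3.69 on the KO arrays. For 51 of 56 genes all KO PBS arrays lay above all WT PBS arrays, against 16.8% of all genes tested, and on slide 1 alone KO PBS replicates 1 and 2 did so for 53, against 26.8%. For 53 of 56 all KO LPS arrays lay below all WT LPS arrays, against 30.0% of all genes; these groups lie on different slides.

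Rsad2, which encodes the antiviral enzyme viperin, lay at 3.33, 2.93 and 3.18 in KO cells with PBS and at 3.98, 3.98 and 3.86 with LPS. Its change of 0.80 ± 0.16 was 2.49 below the 3.29 of WT cells (adjusted p = 4.8e-05 for the difference in limma). Ifit1, an inhibitor of foreign RNA, rose by 1.32 in KO and 3.53 in WT cells, a difference of -2.21. Ifit3 differed by -2.67, Ifit2 by -2.19, Cmpk2 by -2.38 and Usp18, which removes ISG15 from proteins, by -2.10. Outside the list, the lipid-binding protein gene Apol9b had the most negative called difference among genes well above background on all 12 arrays, -2.85: it rose by 2.25 in WT cells and was not called in KO cells at -0.59 ± 0.26. Cxcl10, listed with the chemokines, which is induced by interferon and NF-kB, rose from 3.36, 3.72 and 3.23 to 6.12, 6.20 and 6.09 in KO cells, by 2.70 against 4.72 in WT cells.

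**Figure D3:**
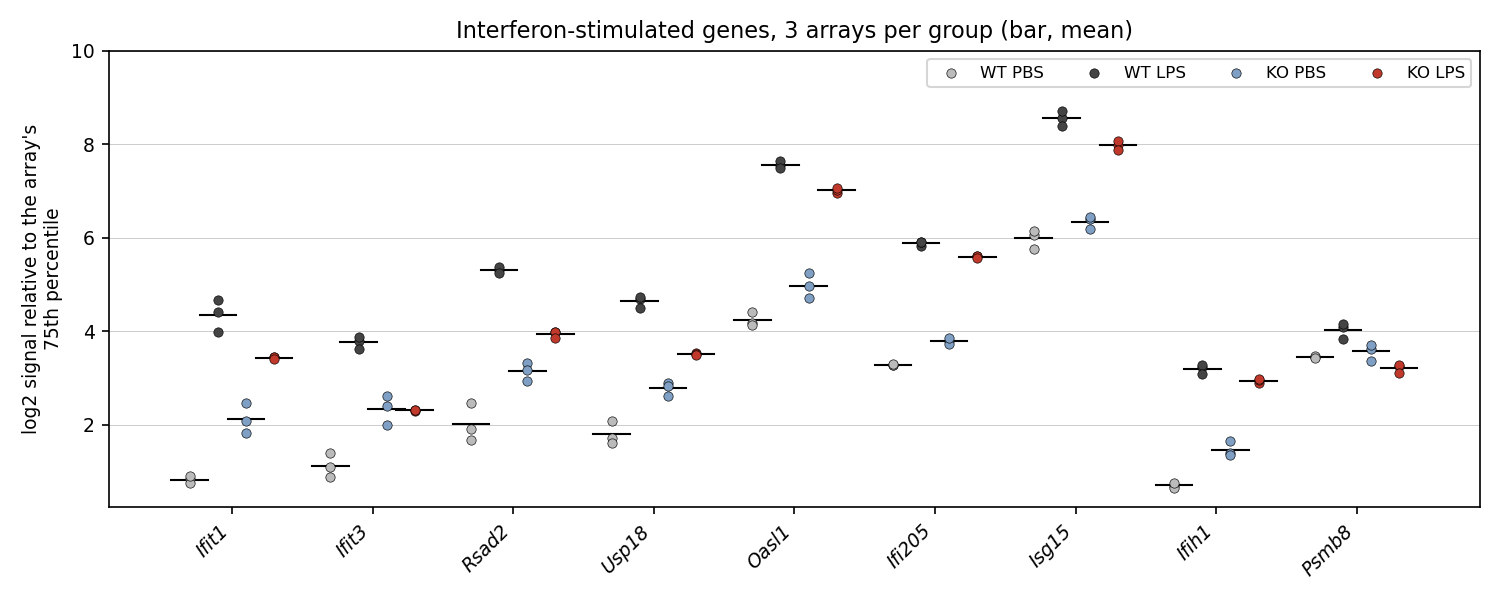
Levels of 9 interferon-stimulated genes on the 3 arrays of each of the 4 groups, as log2 signal relative to the array's 75th percentile, with bars at the group means. KO LPS arrays lie below WT LPS arrays for each gene shown, and for Ifit3 the KO PBS arrays (2.00 to 2.61) enclose the KO LPS arrays (2.29 to 2.31).

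For the 11 NF-kB and IkB genes the median change was 1.25 in KO and 1.17 in WT cells, and the difference was called for 1 of them, or for 2 without KO PBS replicate 3. Nos2 rose by 3.67 in KO and 5.26 in WT cells, but the difference of -1.58 was not called (adjusted p = 0.13 in limma); nor was that of Il6, 1.16, at adjusted p = 0.095. A few genes rose more in KO cells. Cxcl3 rose by 2.36 against 1.48 in WT cells, a difference of 0.88, and Maff, a small bZIP factor, by 1.63 against 0.81. Tlr1, which pairs with TLR2 to sense lipopeptides, rose from 0.81, 0.83 and 1.03 to 1.42, 1.50 and 1.46 in KO cells and fell by 0.18 in WT cells. By the same measure the most positive called difference was that of Nudt7, a peroxisomal hydrolase, at 1.34, but its probes disagreed and the mean of them fell in KO cells by 0.52. Naip1 fell by 2.14 in KO and 2.96 in WT cells, a difference of 0.82.

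**Figure D4:**
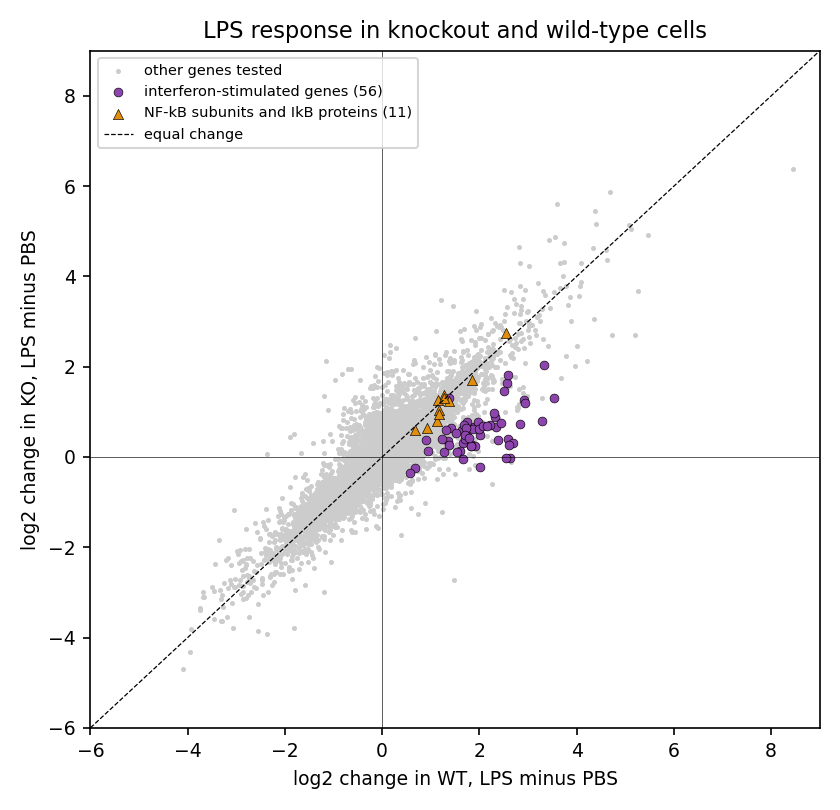
Change after LPS in KO cells (upward) against WT cells (across) for each gene tested, as log2 LPS minus PBS, with the 56 interferon-stimulated genes as purple circles, the 11 NF-kB and IkB genes as orange triangles and a dashed line of equal change. The interferon-stimulated genes lie below the line (median 0.51 in KO and 1.89 in WT cells), and the NF-kB and IkB genes lie near it (1.25 and 1.17).

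**Figure D5:**
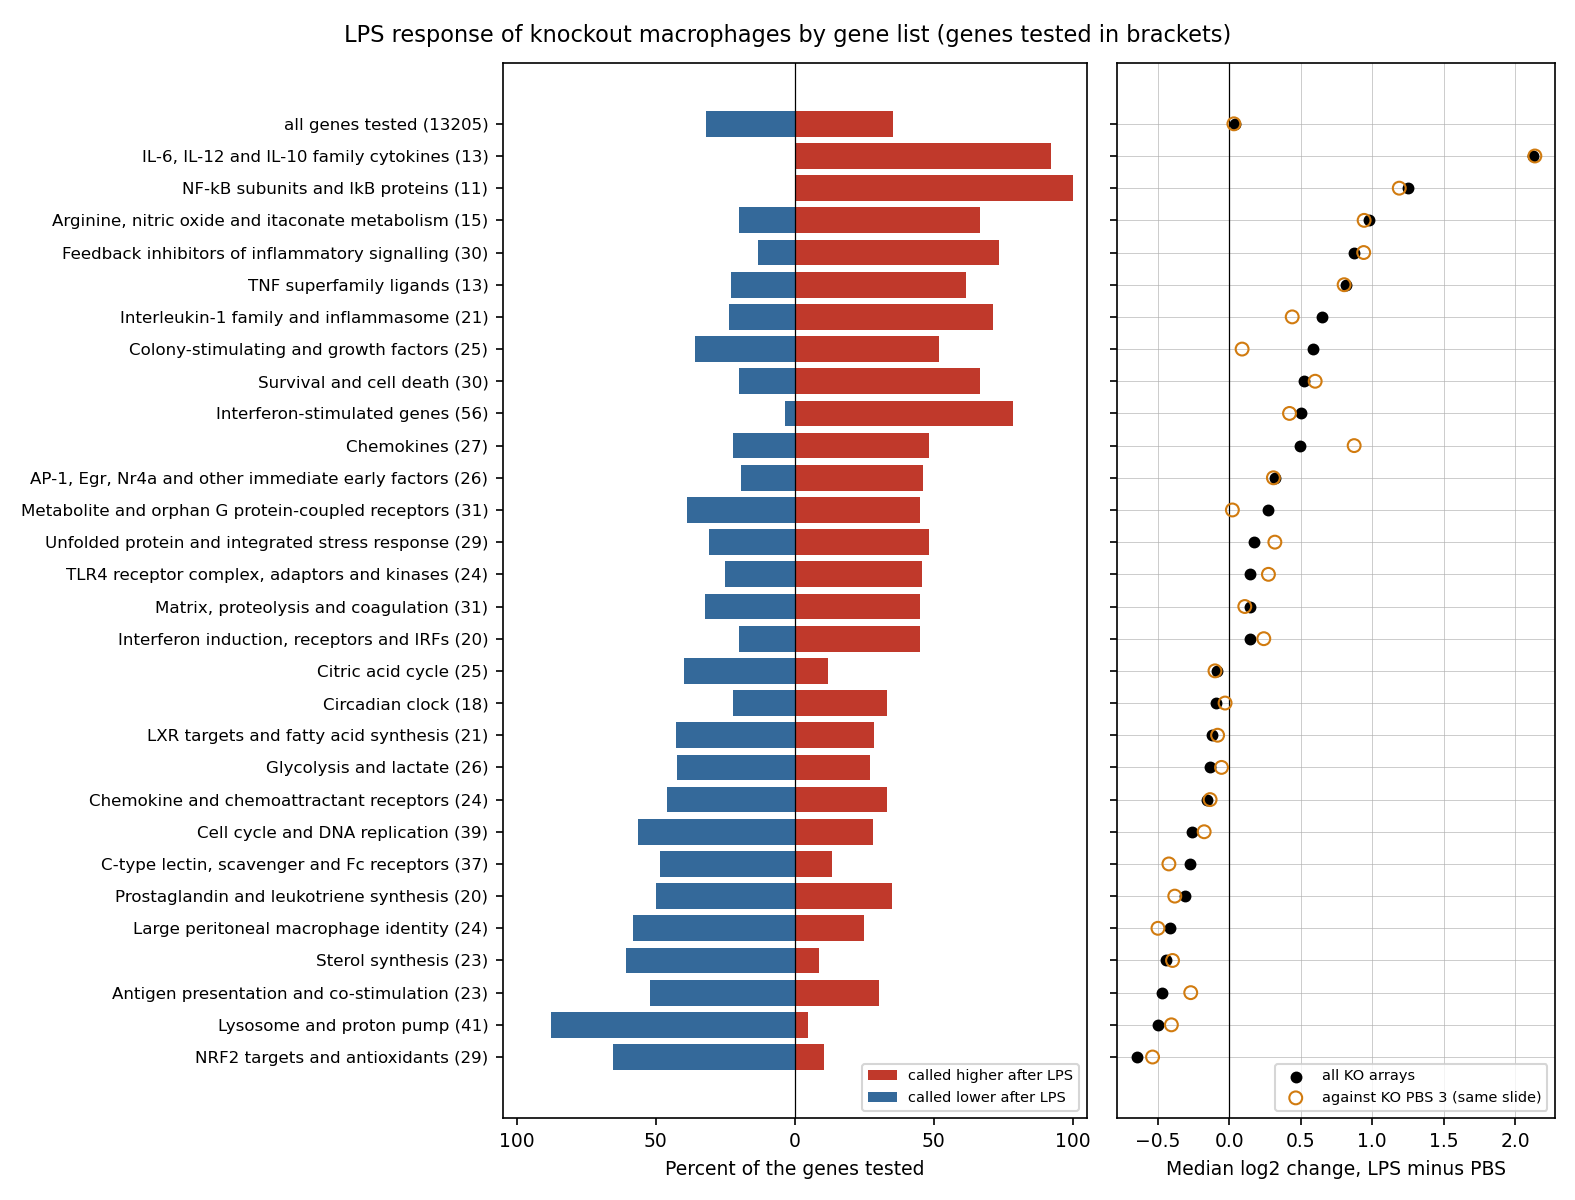
Left, percent of the tested genes of each list called higher (red, right of 0) or lower (blue, left of 0) after LPS in KO cells, with the number tested in brackets. Right, the median log2 change from all KO arrays (filled) and against KO PBS replicate 3 on the same slide (open), ordered by the former with all genes at the top; it runs from -0.65 for NRF2 targets to 2.13 for the IL-6, IL-12 and IL-10 families, and all genes lie at 0.04.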

How the data were processed

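Total RNA of 12 samples was hybridised to one-colour Agilent arrays. The deposited values are scanner intensity values per spot, written by Agilent Feature Extraction 11.5.1.1 per the submitters' processing notes; the processed signal used here is already background-subtracted and detrended within the array by the authors' software, per the file headers, but not scaled between arrays. The array design is annotated on mm9, per the file headers. Of 56605 probes, 32994 (58.3%) were named through RefSeq transcript accessions on GRCm38.p6.

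From these intensities, control spots were left out, log2 was taken, each array's 75th percentile over non-control spots was subtracted and spots of one probe were averaged. A spot marked as an outlier was left out of that average only where its probe had an unmarked spot on the same array. A probe was kept where all 3 arrays of either KO group detected it well above background, and the brightest one stood for the gene. Probes disagreed in the direction of their calls for 128 of 3564 genes with several probes and a call. The 13205 genes were fitted with limma 3.58.1 in R 4.3.3 (lmFit, eBayes with trend) as 4 group means over 12 arrays, two-sided, with Benjamini-Hochberg adjustment at 0.05. On simulated data the fit recovered 73.3%, 90.9% and 97.9% of 1.5-, 2- and 4-fold changes of the KO comparison, with 5.31% false calls. That simulation changed 200 genes, with independent noise and no slide effect, so its rates do not carry over to the calls here. Arrays have no count depth; their number limits the precision.

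The genes named are the 20 largest rises and falls called with and without the slide term, the 8 largest lower bounds each way, from each list the 5 largest rises and falls and 2 members not called, and the 10 largest differences from WT each way. Some genes that this rule names are not reported here. The members, lists and tests were chosen with earlier results of these data known, and gene families defined by symbol were added after the values were seen. Alternatives were other scalings, background correction, dim-probe filters, probe rules, variance models, the slide, a replicate block and each array left out. The replicate numbers were not used as pairs: correlations of same-numbered PBS and LPS deviations were 0.0276, 0.109 and 0.0803.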

Additional observations from a re-analysis of the deposited data

Results flagged for a closer look

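The genes below stand here because the change after LPS differed between KO and WT cells in limma's test of that difference. Values are the KO change minus the WT change in log2 units, and no explanation was tested. KO LPS arrays share no slide with WT arrays, and the genotypes also differ in Xist and Y-linked genes.

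Many of the named genes with a negative difference are interferon-stimulated. Among genes well above background on all 12 arrays, the most negative were those of Apol9b at -2.85, Ifit3 at -2.67, Ifit3b at -2.58, Rsad2 at -2.49, Ifit1bl1 at -2.45, Cmpk2 at -2.38 and Ifi44 at -2.34. Other named genes were Ifit1 at -2.21, Ifit2 at -2.19, Usp18 at -2.10, Cxcl10 at -2.02, Gbp2 at -1.72, Oasl1 at -1.28, Ifih1 at -1.03, Isg15 at -0.95, Psmb8 at -0.93, Psmb9 at -0.92, Lgals3bp at -0.81 and Ifi205 at -0.79. Ifit1bl1, a relative of Ifit1, went from -0.44, -0.83 and -0.27 to -1.87, -1.67 and -1.63 in KO cells, a fall of 1.21 ± 0.13, and rose by 1.24 in WT cells. Outside the interferon-stimulated list, the NF-kB inhibitor gene Tnip3 differed by -0.95, the co-stimulatory receptor gene Cd40 by -0.84 and the caspase genes Casp1 and Casp8 by -0.63 and -0.52. Casp1 and Casp8 both fell in KO cells, by 0.34 and 0.21, and rose in WT cells, by 0.30 and 0.31.

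Positive differences were smaller in number. They were 1.34 for Nudt7, whose probes were called in opposite directions, and 1.19 for the adhesion gene Hepacam2, which fell by 1.61 in KO and 2.79 in WT cells. Cxcl3 differed by 0.88, Naip1 by 0.82, Maff by 0.82, the B-cell complement receptor gene Cr2 by 0.79, Tlr1 by 0.75, Prr7 by 0.75, Fcrl1, a B-cell receptor gene, by 0.74, Cbx7 by 0.74 and Idi1 by 0.63. Summed B-cell markers on the WT arrays were 156.4 to 196.1 with PBS and 88.9 to 103.2 with LPS; their part in the differences of Cr2 and Fcrl1 was not tested.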

How the results depend on the processing

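The counts of KO genes called higher (4649) and lower (4227) stayed within 1.5 times under the 17 settings run, at 3675 to 4899 and 3343 to 4906, and at 4017 to 4899 and 3853 to 4504 with 1 KO array left out. The split moved: 46.2% of calls were higher after quantile normalization and 44.1% with the 75th percentile over detected probes, against 52.4%. Under either of these scalings 0 genes were called in the opposite direction. Normexp gave 588 genes at least 2-fold higher and 490 lower, against 936 and 951, which were 856 to 1154 and 919 to 1002 with 1 array left out. The replicate block on the 6 KO arrays gave 4707 higher and 4264 lower, and the replicate block within genotype gave 999 differences from WT against 567, which were 356 to 2793 with 1 array left out. The replicate numbers are not known to pair the samples. Means over all probes called 20 genes in the opposite direction, and turned Nudt7 to -0.52 and Tfeb to -0.48. Quantile normalization took the call of Prg4 and Txn1 and gave one, lower with LPS, to Vegfa, Apoe and Clec4d, and Ifit2 lost its call in KO cells with the slide as a term, with the 75th percentile over detected probes, with no filter on dim probes and with any KO array but KO PBS replicate 3 left out. The growth factor median became -0.19 among genes above background on all 6 KO arrays, and the proteasome median -0.032 after quantile normalization. The causes were not tested. Signals near background give lower bounds only, and slide and treatment are partly confounded in KO cells.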

Other observations

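Receptors for metabolites and nucleotides, and orphan G protein-coupled receptors, rose in 14 of 31 genes (45.2%, against 35.2% of all genes) and fell in 12 (38.7%, against 32.0%) after LPS in KO cells, with a median of 0.27 that was 0.02 within slide 2. Adenosine and nucleotide receptors had the 3 largest rises. Adora2b, a receptor of adenosine, lay at 0.52, 0.40 and 0.32 with PBS and at 2.61, 2.53 and 2.58 with LPS, a rise of 2.16 ± 0.10, and Adora2a rose by 1.73 ± 0.07. The nucleotide receptor genes P2ry2 and P2ry6 rose by 1.66 ± 0.19 and 1.47 ± 0.23. S1pr1, the receptor of sphingosine-1-phosphate, fell by 1.66 ± 0.06. Of 18 clock genes 6 rose (33.3%) and 4 fell (22.2%), against 35.2% and 32.0% of all genes, and 2 fell within slide 2. Ciart, a clock repressor, rose by 1.81 ± 0.14 and Nfil3 by 0.93 ± 0.10. Clock fell by 0.31 ± 0.07, a call lost with the mean of all its probes.

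In 12 gene families defined by symbol and chosen after the values were seen, the share of members that rose differed. Over all genes 35.2% rose and 32.0% fell. DEAD-box helicase genes rose in 29 of 35 cases, with Ddx17 falling by 0.27, tRNA synthetase genes in 13 of 16 at a median of 0.47, and chaperonin subunit genes in 8 of 8 at a median of 0.66. For 1 of these 8 chaperonin genes only a lower bound can be given, and its direction follows from the filter. Mitochondrial ribosomal protein genes rose in 34 of 78 cases and fell in 16. Zinc finger (Zfp) genes rose in 90 of 311 cases (28.9%) and fell in 82 (26.4%). Solute carrier genes rose in 69 of 220 cases (31.4%) and fell in 77 (35.0%), and both families lie near the shares of all genes. Rab GTPase genes rose in 13 and fell in 24 of 59 cases, and tripartite motif genes in 19 and 16 of 45. Among 39 proteasome subunit genes 19 rose and 5 fell, of which 1, Psma8, was called within slide 2. Among 36 subunit genes of respiratory complex I 18 fell and 5 rose, 3 within slide 2. Transmembrane protein genes fell in 70 of 162 cases and rose in 39 (25 within slide 2). Of 91 cytosolic ribosomal protein genes 22 rose and 11 fell; the falls numbered 5 within slide 2 and 19 without KO PBS replicate 3.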
